A study of Mus musculus with 2 samples.

Results

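Ribosomal RNA processing factors are the nucleolar proteins that cut, fold, modify and package the ribosomal RNA precursor. The set described here holds 50 of their genes out of 20949 protein-coding mouse genes, in a list of Sap130 peaks from embryonic heart. It was drawn up after 7 of its genes (Ddx21, Ncl, Nol9, Gar1, Rrp12, Utp20 and Nop2) were seen within the first 24 positions of that list, so the positions are given as a description and support nothing. Where Sap130 sits on the genome was mapped by ChIP-seq, which sequences the DNA that an antibody pulls down with its protein, in hearts of wild-type B6 mouse embryos. The ChIP library was made with a rabbit antibody against Sap130 from E13.5 heart, and the input library, made with no antibody, carries the age label E13.6. The question stated by the design is which targets Sap130 has in the heart at this stage. There was 1 library of each kind, so no difference given here has a replicate check, and the statements describe this one list of 16697 peaks.

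Sap130 is a subunit of the Sin3 complex, which brings histone deacetylases to chromatin and is found mostly at the promoters of active genes. Ribosomes are assembled around a long precursor RNA made by RNA polymerase I. Small nucleolar ribonucleoproteins (snoRNPs) guide its methylation (box C/D) and pseudouridylation (box H/ACA). The small-subunit processome, built around the U3 snoRNP, folds and cuts the part that becomes 18S RNA, and a separate series of factors matures the 28S part for the large subunit. Growing tissues, the embryonic heart among them, need large amounts of these factors, and many of their genes are known targets of MYC in other cell types.

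The 50 genes were grouped by role into 24 small-subunit factors, 17 large-subunit factors, 7 snoRNP proteins and 2 early factors (Ddx21 and Ncl) that act from the synthesis of the precursor on. The authors' table gives each peak by position and names at most 1 transcript for it, with no height, fold enrichment, p-value or read count, and library depth is therefore unknown. The peaks stand in an order whose criterion the sources used here do not state, and a peak's place in it is called its position. A peak was counted as a promoter peak where its midpoint was at most 1 kb from the start of its named transcript. Peak edges are as deposited and uncertain by 1 bp, since it is not stated whether they count from 0 or 1. What the list measures is occupancy: neither expression of these genes nor the specificity of the antibody was measured. Of the tissue markers looked at, 9 of 9 heart genes, 4 of 4 endothelial genes, 3 of 4 epicardial and fibroblast genes (Tcf21 had none) and 1 of 3 red cell genes (Hba-a1 and Gata1 had none) had a named peak. The share over all protein-coding genes was 52.6%. Promoter peaks stood at 7, 3, 3 and 0 of the markers, where the share over all protein-coding genes was 50.6%. The lists are short, and a peak at a marker names no cell type.

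A named peak was found at 42 of the 50 genes (84.0%), against 52.6% of all protein-coding genes. A promoter peak was found at 41 (82.0%), against 50.6%. The 7 genes whose peaks led to the choice of the set had a peak by that choice, and of the 43 others 35 had a named peak (81.4%) and 34 a promoter peak (79.1%). Promoter peaks stood at 18 of 24 small-subunit factors, 14 of 17 large-subunit factors, 7 of 7 snoRNP proteins and 2 of 2 early factors. The 8 genes without a named peak all began inside a peak that the authors' table names for a neighbouring gene, as given further down. For Dcaf13 and Bop1 among them the strand was not known, and the gene end nearest to a peak midpoint was taken as the start. Counted without regard to the name, and with these genes included, the start of 47 of the 50 genes (94.0%) lay inside a peak. In the RefSeq promoter table, where the same can be counted for all genes, the start of 37 of the 40 processing factors it holds lay in a peak, against 46.2% of 17491 genes.

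The promoters of 40 of the 50 genes were found in a RefSeq table of assembly GRCm38.p6 that holds 250 bases before and 50 after each start. Of the 10 short motifs searched there on both strands, the E-box CACGTG and the ETS motif CCGGAAG had the highest ratios to their share in all promoters among those found in more than 2 of these genes. CACGTG is the site bound by MYC, MAX and related factors, and 10 of 40 promoters (25%) held it, against 8.91% of the promoters of 17491 protein-coding genes and 12.3% of those with a promoter peak. The following stretches of 160 bases run from 130 before to 30 after the start, 5′ to 3′ on the strand of the gene, with the E-box, the ETS motif or the reverse complement of the latter in capitals. They are the 7 genes in which the E-box lay within that stretch.
Nol11: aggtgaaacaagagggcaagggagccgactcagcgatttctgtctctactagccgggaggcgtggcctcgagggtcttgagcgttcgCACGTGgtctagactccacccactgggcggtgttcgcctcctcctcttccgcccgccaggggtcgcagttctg
Wdr43: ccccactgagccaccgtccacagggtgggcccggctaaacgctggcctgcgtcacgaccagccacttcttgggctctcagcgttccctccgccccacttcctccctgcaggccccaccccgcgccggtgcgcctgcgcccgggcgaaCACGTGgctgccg
Utp18: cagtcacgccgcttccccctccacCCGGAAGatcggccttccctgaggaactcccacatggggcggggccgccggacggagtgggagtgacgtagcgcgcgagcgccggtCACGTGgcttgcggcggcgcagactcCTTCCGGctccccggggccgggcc
Imp4: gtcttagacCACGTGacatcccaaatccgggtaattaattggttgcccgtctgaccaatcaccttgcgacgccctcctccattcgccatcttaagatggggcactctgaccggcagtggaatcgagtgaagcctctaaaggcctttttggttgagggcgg
Tsr1: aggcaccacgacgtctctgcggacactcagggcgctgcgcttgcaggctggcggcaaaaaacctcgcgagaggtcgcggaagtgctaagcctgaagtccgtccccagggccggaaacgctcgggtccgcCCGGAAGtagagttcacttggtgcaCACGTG
Pes1: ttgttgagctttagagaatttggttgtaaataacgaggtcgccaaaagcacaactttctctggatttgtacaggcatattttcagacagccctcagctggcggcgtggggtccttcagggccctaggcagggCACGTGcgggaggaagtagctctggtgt
Nop2: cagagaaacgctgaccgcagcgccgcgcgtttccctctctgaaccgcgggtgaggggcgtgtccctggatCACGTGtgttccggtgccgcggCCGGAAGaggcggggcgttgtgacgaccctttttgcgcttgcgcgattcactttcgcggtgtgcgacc

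In the small-subunit factors Utp20, Pno1 and Ltv1 the E-box lay further into the transcript, and the bases from 15 to 44 after the start are shown, with the E-box in capitals.
Utp20: gcggcgcccagcggcactaactaCACGTGa
Pno1: ggcgcatgcgctgtacaaccacgCACGTGt
Ltv1: tagccctgtggaccCACGTGtggagctgcc

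The E-box began at −121 in Imp4, −60 in Nop2, −43 in Nol11 and −20 in Utp18, counting the start site as 1 and the base before it as −1. It began after the start in the 6 other genes, at 3 in Pes1, 18 in Wdr43, 25 in Tsr1, 29 in Ltv1 and 38 in both Utp20 and Pno1. All 10 E-boxes lay inside a Sap130 peak, those of Utp18 and Imp4 inside peaks named for a neighbour. The share was 61.4% of 1688 E-boxes in the promoters of all protein-coding genes and 82.1% of 1182 at genes with a promoter peak. Of the 10 E-boxes, 9 began within 60 bases of the start. Since most of these starts lay in a peak, a site this close to the start lay in one almost by necessity. Counted by side of the start, a choice made after the positions were seen, 6 of 40 genes (15%) held CACGTG after the start, against 1.32% of all genes and 1.82% of genes with a promoter peak. Before the start the counts were 4 of 40 (10%) against 7.61% and 10.5%. So the share of these genes with an E-box differed from the background mainly through the first 50 transcribed bases.

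By role, CACGTG stood in 8 of 20 small-subunit promoters, 2 of 12 large-subunit promoters, 0 of 6 snoRNP promoters and 0 of 2 early ones. Among other ribosome biogenesis genes the small-subunit and large-subunit counts were close, 7 of 32 and 8 of 40. The late small-subunit factors Tsr1, Pno1 and Ltv1, which act on the particle that leaves for the cytoplasm, all held it 25 to 38 bases into the transcript. They were singled out after their sites were seen, and Rrp12, the 4th of this group, is not in the promoter table. CCGGAAG was present in 16 of 40 genes (40%), against 12.9% of all genes and 20.2% of genes with a promoter peak. It occurred in 9 small-subunit, 5 large-subunit, 2 snoRNP and 0 early genes. All 22 of its sites lay inside a peak, where 89.6% of its sites at genes with a promoter peak did, and Utp18, Tsr1, Ltv1 and Nop2 held both motifs. Sites were counted for each annotated start, so the same bases in Ddx49 and in Noc2l entered the 22 more than once. A match is a description of the letters and shows binding of no factor.

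The promoters of Gar1, at position 7, Ddx21, at 2, and Ncl, at 3, are shown for the genes at the front of the table, from 130 before to 30 after the start. Gar1 held CCGGAAG in reverse (capitals), and the early factors held neither motif in the 300 bases searched.
Gar1: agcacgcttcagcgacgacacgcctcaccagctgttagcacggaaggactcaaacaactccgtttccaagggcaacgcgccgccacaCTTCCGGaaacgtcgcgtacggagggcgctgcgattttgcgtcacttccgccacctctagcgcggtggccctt
Ddx21: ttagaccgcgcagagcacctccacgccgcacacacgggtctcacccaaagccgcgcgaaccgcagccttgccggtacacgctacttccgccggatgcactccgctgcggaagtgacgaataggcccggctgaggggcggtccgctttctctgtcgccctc
Ncl: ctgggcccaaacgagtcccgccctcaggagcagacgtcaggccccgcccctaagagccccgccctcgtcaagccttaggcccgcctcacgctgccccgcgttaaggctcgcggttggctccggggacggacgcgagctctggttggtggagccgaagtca

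The stretches were read from chr11:107189352-107189511, minus strand (Nol11), chr17:71616085-71616244, plus strand (Wdr43), chr11:93885737-93885896, minus strand (Utp18), chr1:34439699-34439858, plus strand (Imp4), chr11:74897950-74898109, plus strand (Tsr1), chr11:3963845-3964004, plus strand (Pes1) and chr6:125131753-125131912, plus strand (Nop2). The shorter ones came from chr10:88826771-88826800, minus strand (Utp20), chr11:17211546-17211575, minus strand (Pno1) and chr10:13193094-13193123, minus strand (Ltv1). The last ones were chr3:129831367-129831526, minus strand (Gar1), chr10:62602269-62602428, minus strand (Ddx21) and chr1:86359426-86359585, minus strand (Ncl), all in GRCm38.p6.

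The other 8 motifs were either closer to their background as a ratio or found in at most 3 of these genes. CACGCG, a variant E-box, was found in 11 of 40 genes (27.5%), against 13.7% of all genes and 21.7% of genes with a promoter peak. The SP and KLF motif GGGCGG was found in 27 (67.5%), above the 49.2% of all genes and below the 73.9% of genes with a promoter peak. CCAAT, the NF-Y box, was found in 17 (42.5%), against 42.3% of all genes, and its 11 small-subunit genes of 20 stood beside 2 large-subunit genes of 12. TATAAA was found in 3 (7.50%), against 14.8% of all genes and 7.82% of genes with a promoter peak. The NRF1 core GCATGCGC was found in 1 gene (2.50%, against 3.93% and 6.43%). The YY1 motif GATGGCGG (5%, against 2.62% and 4.25%), the CRE TGACGTCA (5%, against 2.54% and 3.77%) and CTCGCGAGA, bound by ZBTB33 and related proteins (5%, against 1.08% and 1.79%), were found in 2 genes each. The promoters held a median of 22.5 CpG dinucleotides in 300 bases, near the 23 of genes with a promoter peak and above the 15 of all genes.

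**Figure D1:**
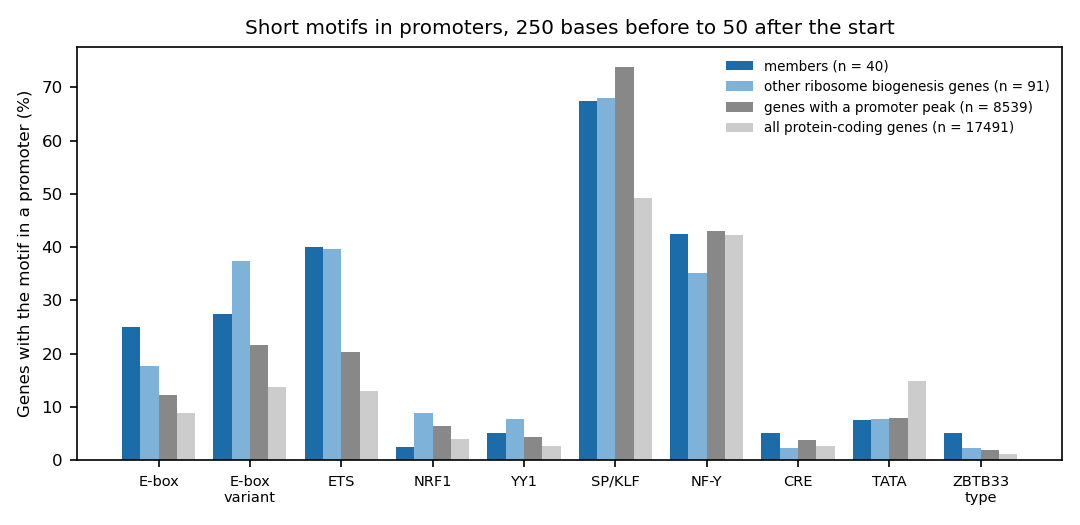
Share of genes (%, vertical axis) whose promoter holds each of 10 short motifs on either strand, for the rRNA processing factors in the promoter table (n = 40), 91 other ribosome biogenesis genes, 8539 protein-coding genes with a promoter peak and all 17491 protein-coding genes. Bars of the processing factors stand at 25% for the E-box CACGTG and 40% for the ETS motif, above both backgrounds, whereas for the SP/KLF motif (67.5%) the bar lies between them.

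The early factors stood at the front of the table. Ddx21, an RNA helicase that works in polymerase I transcription and precursor processing, had the peak at position 2 (chr10:62601306-62602891), 1585 bp wide, reaching from −593 to 992 bp around its start. Ncl, nucleolin, a main nucleolar protein that binds the precursor, had the peak at position 3 (chr1:86358133-86359403), 1270 bp wide. Both peaks were centred in intron 1, but they differed in place. The Ddx21 peak contained the start with its midpoint at 199.5 bp, whereas the Ncl peak began 52 bp after the start and had its midpoint at 687 bp. A further peak upstream, at position 1969 and named for C130036L24Rik, ended 49 bp short of the Ncl start, so that the start lay in the gap between the peaks.

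Among the snoRNP proteins, the 3 box C/D proteins in this set all had early and wide peaks. Nop56, a core protein of box C/D particles, was at position 44 (1406 bp wide), Fbl, fibrillarin, the methyltransferase of these particles, at 194 (1569 bp), and Nop58, the partner of Nop56, at 547 (1272 bp). Each contained the start, and the midpoints lay at 110, 217.5 and 460 bp, in intron 1. Fbl had another, narrow peak upstream at position 15946, 261 bp wide, with its midpoint at −886.5 bp.

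The 4 box H/ACA proteins spread over much of the table. Gar1 was at position 7 (chr3:129830307-129831808, 1501 bp wide, midpoint at 338.5 bp) and Nhp2 at 407 (796 bp wide, midpoint at 216 bp). Nop10, the smallest protein of the particle, was at 7628, with the narrowest of the snoRNP genes' earliest peaks at 489 bp, its midpoint at 100.5 bp. Dkc1, dyskerin, the pseudouridine synthase itself, was last at position 8481 (chrX:75095914-75096941), 1027 bp wide, and its peak began 60 bp after the start, with the midpoint at 573.5 bp. So the subunits of a single 4-protein particle ranged from position 7 to 8481 and from 489 to 1501 bp in width.

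Among the small-subunit factors, those of the late pre-40S particle were all within the first 397 positions. Rrp12, which in yeast takes part in export of the pre-ribosome, was at position 9 (chr19:41895647-41896612, 965 bp wide), nearly centred on its start with the midpoint at 23.5 bp. Pno1, an RNA-binding factor of the 18S 3′ end, was at 123 (1350 bp wide) with its midpoint at −24 bp. Tsr1, a GTPase-like factor, was at 218 (1078 bp, 262 bp) and Ltv1, another late assembly factor, at 397 (599 bp, 123.5 bp). All 4 peaks contained the start.

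The t-UTP proteins, which bind the precursor first and link its synthesis to processing, had peaks at 4 of 5 genes. Heatr1 was at position 40 (745 bp wide, midpoint at 186.5 bp) and Wdr75 at 1149 (767 bp, 108.5 bp). Wdr43 was at 762 and had the widest peak of the small-subunit factors, 1824 bp, reaching 1551 bp into the gene. Nol11 was at 3135 (928 bp wide, midpoint at 341 bp). The 5th, Utp15, had no named peak.

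Utp6 and Utp18 belong to UTP-B, the processome's next building block. Utp6 had a pair of named peaks, 1 at position 4979 (chr11:79961720-79962453, 733 bp wide) over the start and 1 at 16631 (397 bp wide) with its midpoint at −473.5 bp. Utp18 had no named peak. Of the U3 and Mpp10 proteins, Rrp9, a U3-specific protein, was at 1278 (929 bp wide, midpoint at 80.5 bp) and Imp3 at 6388. Mphosph10, which binds Imp3 and Imp4, was at 4653 (717 bp, 17.5 bp), beside a separate peak at 7579 (601 bp) named for the divergent gene Mcee. Imp3, a partner of Mphosph10 and U3, was last by earliest peak in the small-subunit class (chr9:56937123-56938154, 1031 bp wide, midpoint at 138.5 bp), and its own partner Imp4 had no named peak.

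The other processome factors lay between positions 12 and 5440. Utp20, a very large scaffold protein, was at position 12 (chr10:88826357-88827223, 866 bp wide, midpoint at 24 bp) and Nol10 at 164 (849 bp) with its midpoint at −103.5 bp. Nol6 followed at 1647 (840 bp, midpoint at 56 bp) and Bms1, a GTPase, at 3524 (861 bp, midpoint at 0.5 bp), the peak most nearly centred on its start. Nop14, at 4138, had the narrowest earliest peak of the class, 488 bp, with its upstream edge at −26 bp, beside a separate peak at 6531 (882 bp wide) named for the divergent gene Grk4. Utp3, at 5440, had a 1276 bp peak (chr5:88553728-88555004) with its midpoint at −117 bp, the furthest upstream among the earliest promoter peaks of the 41 genes. In all 18 small-subunit factors with a promoter peak that peak contained the start.

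Among the large-subunit factors, Nol9, a kinase that acts on the 5′ end of RNA during 28S maturation, was first at position 4 (chr4:152039126-152040129, 1003 bp wide, midpoint at 300.5 bp). Nop2, a cytosine methyltransferase of 28S RNA, was at 24 (chr6:125131272-125132692, 1420 bp wide, midpoint at 99 bp). Noc2l was at 69 (974 bp, midpoint at 128 bp) and its partner Noc3l at 2096 (753 bp, 107.5 bp). These partners differed far more in position than in place. Rrs1, which helps to bring in the 5S particle, was at 224 (1007 bp, 320.5 bp). Nip7 was at 1055 with a peak of 1518 bp centred at −63 bp, and Ebna1bp2 at 1424 (838 bp, 174 bp). Rrp1 (984 bp wide) and its paralogue Rrp1b (1371 bp) stood at 2694 and 3973, with midpoints at 448 and 585.5 bp, and both peaks reached further into the gene than before it.

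Npm1, nucleophosmin, an abundant nucleolar chaperone, was at position 674 with the widest peak named for a large-subunit factor, 1750 bp (chr11:33161355-33163105). It began 101 bp after the start and ended at 1851 bp, with the midpoint at 976 bp, just inside the promoter window. In the PeBoW complex, which is needed for large-subunit RNA maturation, Wdr12 was at 2828 (1673 bp wide, midpoint at −66.5 bp) and Pes1 at 4765 (chr11:3963704-3964608, 904 bp wide, midpoint at 181 bp). Bop1, the remaining PeBoW protein, had no named peak.

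The nucleolar GTPases differed in position. Gnl2 was at 4037 (719 bp wide, midpoint at 224.5 bp). Gnl3l had its earliest peak at position 10360 (chrX:151016846-151017318, 472 bp wide), later and narrower than the earliest promoter peak of any other large-subunit factor. It had another at 14074 (285 bp) with its midpoint at −549.5 bp. Gnl3, nucleostemin, was the only gene with a named peak but no promoter peak. That peak was at 8220 (chr14:31017773-31018292, 519 bp wide), with its midpoint at 1056.5 bp, just outside the promoter window. The Gnl3 start lay inside a 1717 bp peak at position 107 named for Pbrm1, a remodelling complex subunit on the opposite strand. The Pbrm1 start is 7 bp from the Gnl3 start of the promoter table (chr14:31019131). The midpoint at 1056.5 bp was counted from the Gnl3 start of the peak table (chr14:31019089). Both of these Gnl3 starts lie inside the peak named for Pbrm1.

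**Figure D2:**
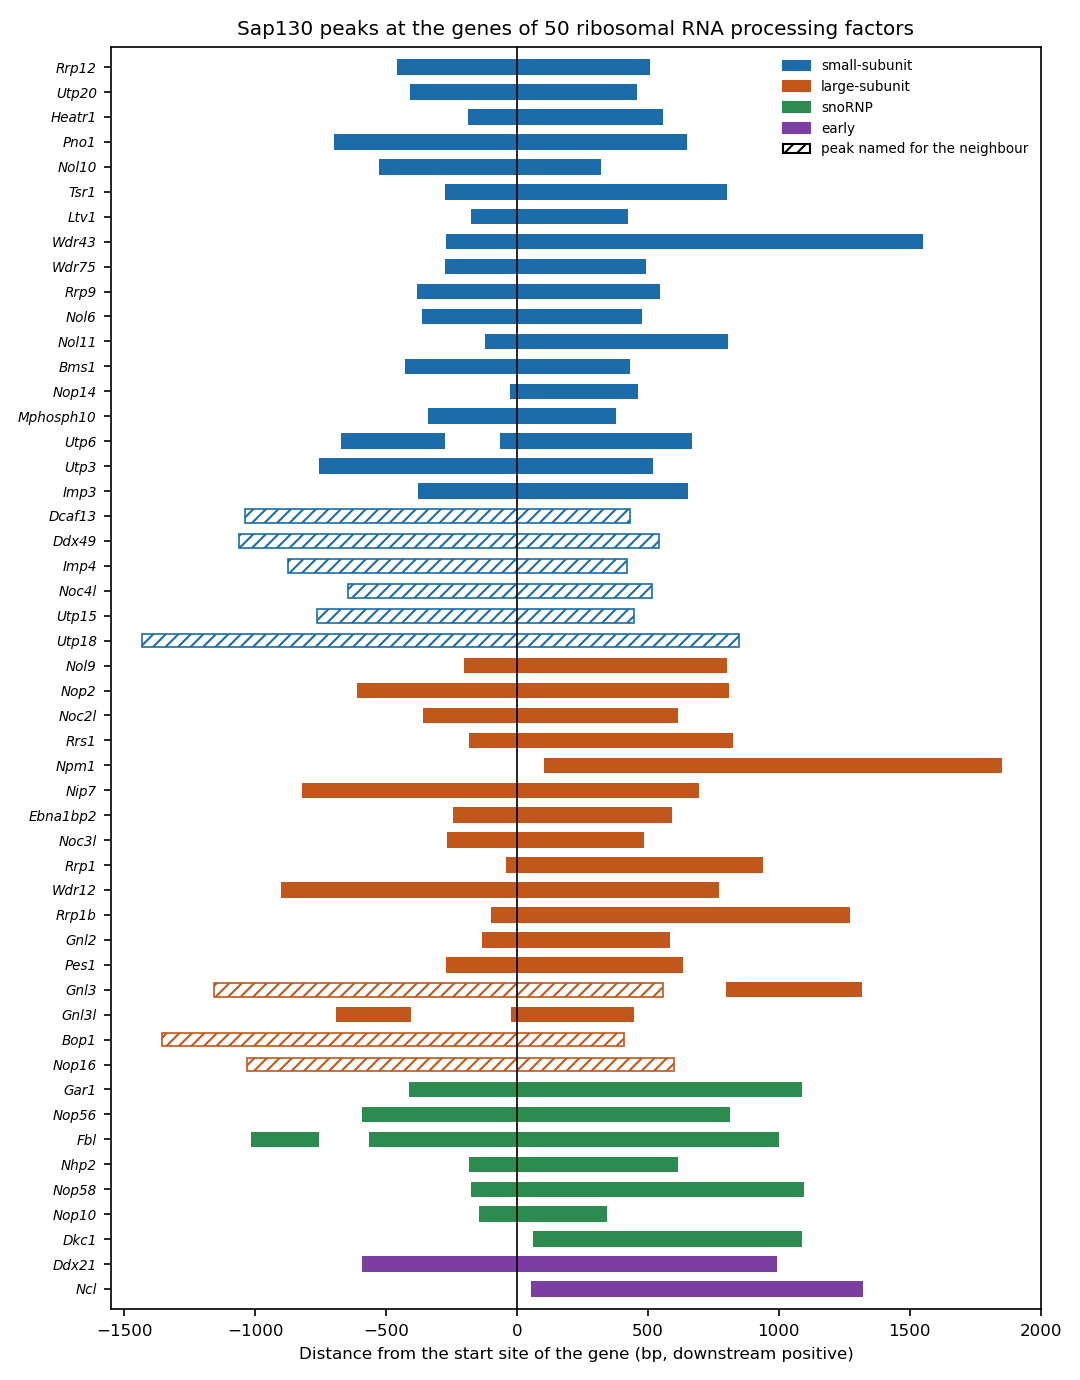
Peaks along the 50 genes, drawn as bars from edge to edge against distance from the start site (bp, downstream positive), coloured by role and ordered by position in the table within each role. Solid bars are peaks named for the gene and hatched bars are peaks named for the neighbour that contain the start (9 genes, with Dcaf13 and Bop1 drawn as if transcribed away from the neighbour), and the bars of Npm1, Dkc1 and Ncl begin 101, 60 and 52 bp after the start.

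The 8 genes without a named peak shared an arrangement. Each began within 453 bp of the start of a neighbour, on the opposite strand in the 6 whose strand is in the tables, and inside a peak named for that neighbour. In 8 of 8 the midpoint lay nearer to the neighbour's start than to their own. How the peaks were named is not stated, and naming each for the nearest start would give this by itself. Of all protein-coding genes in the promoter table, 8.48% had a start on the opposite strand within 1 kb upstream, against 15 of the 40 processing factors in it. Of the genes in that table with no named peak, 77.3% of 578 with such a neighbour had their start inside a peak, against 3.88% of 8034 without one. The 3 processing factors of that table whose start lay in no peak were Ncl, Dkc1 and Wdr75, whose start in that table is 335 bp upstream of the one in the peak table and 60 bp outside its peak.

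Bop1 began inside the peak at position 16 (chr15:76476840-76478606, 1766 bp wide), named for Hsf1, the heat shock factor, 196 bp away. Noc4l, the partner of Nop14, began inside the peak at 239 (chr5:110652867-110654029, 1162 bp), named for Ddx51, itself a helicase of large-subunit assembly. The midpoint of that peak lay 3 bp from the Ddx51 start and 66 bp from that of Noc4l. The 128 bases around these starts, 69 bp apart, are shown along the strand of Noc4l (chr5:110653353-110653480, minus strand), with the first base of Ddx51 (left) and of Noc4l (right) in capitals.
Noc4l and Ddx51: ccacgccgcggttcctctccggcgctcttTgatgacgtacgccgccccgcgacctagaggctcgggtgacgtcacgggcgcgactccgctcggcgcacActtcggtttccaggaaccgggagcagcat

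Utp18 began inside the widest of these peaks, 2280 bp at position 531 (chr11:93884918-93887198), named for Mbtd1, 453 bp away. Ddx49, whose yeast counterpart is a processome helicase, began inside the peak at 587 (1605 bp) named for Cope, a coatomer subunit, with 314 bp between the starts. Dcaf13, a WD-repeat processome factor, lay beside Slc25a32 at 629 (1470 bp, 158 bp apart). For Dcaf13 and Bop1 the strand was not in the tables, and the gene end nearest to a peak midpoint, which faces the neighbour, was taken as the start. That their start lay inside a peak was therefore partly fixed by this choice.

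Utp15 lay beside Ankra2 at 991 (1210 bp, 84 bp apart). Imp4 lay beside Ccdc115 at 4857 (1295 bp) and Nop16, a large-subunit factor, beside Higd2a at 6155 (1629 bp), each with the starts 157 bp apart. The midpoints lay 226.5 bp from the Imp4 start and 69.5 bp from that of Ccdc115, and 216.5 and 59.5 bp from those of Nop16 and Higd2a. With Gnl3, 9 genes began in a peak named for a neighbour, and a single peak over both starts cannot be assigned to either gene.

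Compared by role, the promoter peaks differed in their median place and width. The earliest promoter peak of each gene had a median midpoint at 94.5 bp in the 18 small-subunit factors, 196 bp in the 14 large-subunit factors and 217.5 bp in the 7 snoRNP proteins, against 199.5 bp over 10598 protein-coding genes with one. Median widths followed the same order, at 863.5, 993.5 and 1272 bp, against 857 bp. The ranges overlapped widely, from 488 to 1824 bp, 472 to 1750 bp and 489 to 1569 bp. Peaks wider than 1 kb made up 5 of 18, 7 of 14 and 5 of 7, and 19 of all 41 (46.3%) against 39.1%. Without the 7 genes that led to the choice of the set the count was 14 of 34 (41.2%), nearer to that background.

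The difference in place lay at the downstream edge more than at the upstream one. Median downstream edges were 513.5 bp for the small-subunit, 733 bp for the large-subunit and 1002 bp for the snoRNP genes, against 625 bp. The median upstream edges were −352.5, −223 and −182 bp, against −211 bp. Centred downstream of the start were 15 of 18, 12 of 14 and 7 of 7 peaks, in all 36 of 41 (87.8%) against 84.3%, which is near the background. The peak contained the start in 18 of 18, 13 of 14, 6 of 7 and 1 of 2, in all 38 of 41 (92.7%) against 82.8%. These are medians and counts over genes of 1 library, and the differences between roles were not tested. Among other ribosome biogenesis genes the median midpoints and widths by role stood in another order, as given further down.

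**Figure D3:**
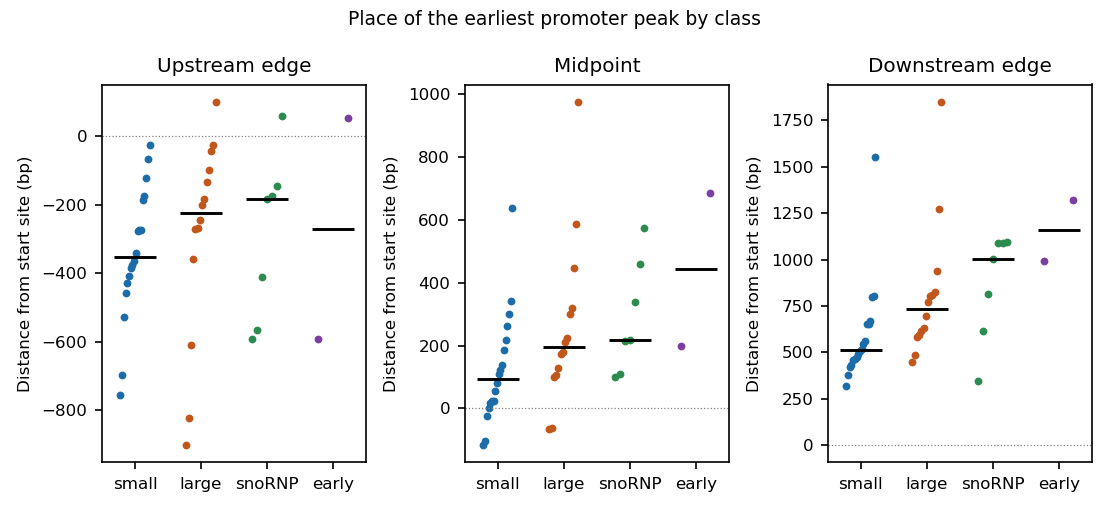
Distance in bp from the start site (vertical axes) of the upstream edge, the midpoint and the downstream edge of the earliest promoter peak, 1 point for each gene, by role, with a bar at the median. The median downstream edge lies at 513.5 bp for small-subunit factors (n = 18), 733 bp for large-subunit factors (n = 14) and 1002 bp for snoRNP genes (n = 7), and the points of the roles overlap.

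By transcript structure, 5 of the 41 midpoints lay upstream of the start, 14 in exon 1 and 22 in intron 1. Over the 10598 protein-coding genes with a promoter peak these shares were 15.7%, 41.8% and 40.2%, and over the processing factors 12.2%, 34.1% and 53.7%. Intron 1 held the midpoint in 6 of 7 snoRNP genes and 7 of 18 small-subunit genes. The 5 centred upstream were Pno1, Nol10, Utp3, Nip7 and Wdr12. The translation start lay inside the peak in 39 of 41 genes (95.1%), against 61.8% of the 10551 genes with a promoter peak named for a coding transcript. The processing factors had it a median of 94 bp from the start of the gene, introns included, against 226 bp. The exceptions were Bms1, whose translation start is 833 bp from its start, and Gnl3l, at 3254 bp. The end of exon 1 lay inside the peak in 38 of 41 (92.7%) against 85.1%, and the exceptions Imp3, Rrs1 and Utp3 have a single exon.

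By position, 20 of the 41 peaks stood in the first 1000 (48.8%), against 8.80% of all protein-coding genes with a promoter peak. Since 7 of the genes led to the choice of this set by their position, nothing is read from it, and without them the count was 13 of 34 (38.2%). The median position was 407 for snoRNP, 1213.5 for small-subunit and 1760 for large-subunit genes, against 5883.5. Without the 7 genes these medians were 477, 1462.5 and 2395, and they too are a description only.

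**Figure D4:**
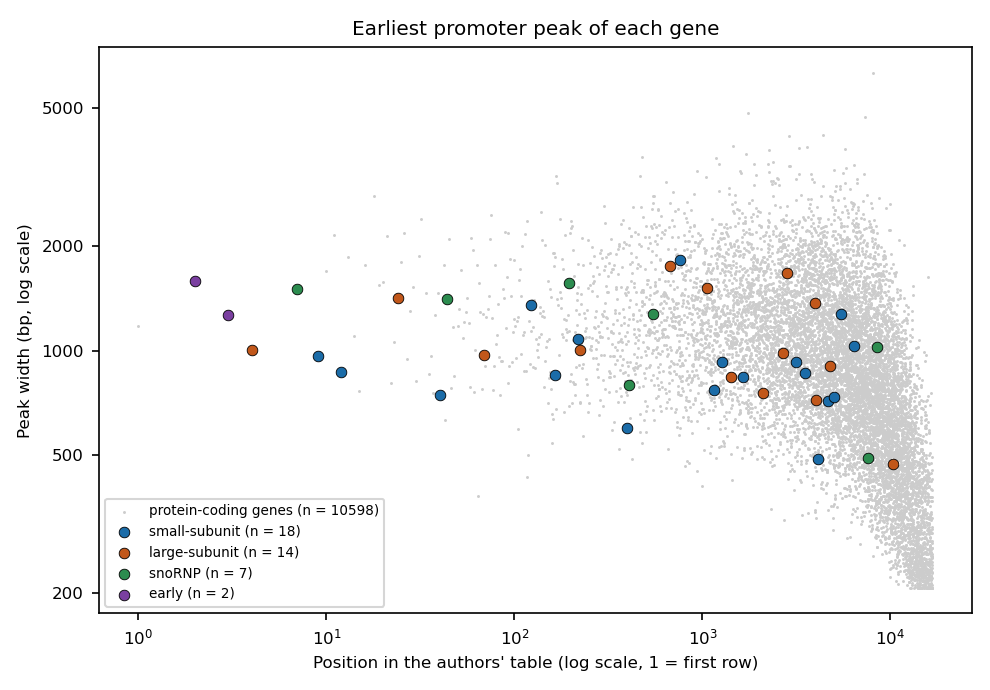
Width (bp, log scale) of the earliest promoter peak of each gene against its position in the authors' table (log scale), with rRNA processing factors coloured by role and all 10598 protein-coding genes with a promoter peak in grey. The coloured points run from position 2 to 10360 and from 472 to 1824 bp in width, and 20 of 41 lie within the first 1000 positions.

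Some of these genes carry small nucleolar RNA genes in their introns. The 7 hosts (Wdr43, Tsr1, Gnl3, Dkc1, Nop56, Nop58 and Ncl) held 19 of them, and a peak overlapped 0 of the 19, against 4.03% of 1340 snoRNA genes in the gene table.

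The same measures were taken over 108 other ribosome biogenesis genes. A promoter peak stood at 97 of them (89.8%), 31 of 39 small-subunit, 42 of 45 large-subunit, 11 of 11 snoRNP and 13 of 13 exosome genes. Their peaks had a median width of 917 bp, a median midpoint at 138 bp and a median position of 1826, and 92 of 97 contained the start. By role the medians did not follow the order seen in the processing factors. Median widths were 860 bp for small-subunit, 945.5 bp for large-subunit and 787 bp for snoRNP genes. In the same sequence the median midpoints were 159.5, 122.75 and 236.5 bp, and the median positions 2216, 1169 and 2417. The first small-subunit genes by position were Bysl (34), Pwp2 (48), Tsr3 (103) and Rcl1 (125), and the first large-subunit genes Ppan (38), Mdn1 (62), Urb1 (70) and Nol12 (77). Among the snoRNP genes of this list Nufip1 (101), Znhit6 (144), Nolc1 (543) and Tcof1 (630) came first. Among the 13 listed genes of the exosome, the complex that trims precursor ends, Dis3 (188), Exosc2 (302), Exosc5 (1182) and Exosc7 (1936) did. The list leaves out the exosome gene Exosc6, whose promoter peak was at position 57.

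The 11 without a named peak were Bud23, Emg1, Esf1, Fcf1, Lyar, Pdcd11, Utp4, Wdr36, Brix1, Ddx31 and Urb2. As among the processing factors, 8 of the 9 found in the promoter table began inside a peak not named for them, each with a divergent neighbour, such as Phb2 for Emg1, Taf5l for Urb2 and Gtf3c4 for Ddx31. Bud23 did not, and Fcf1 and Wdr36 are not in the table. CACGTG was in 16 of 91 promoters of these genes (17.6%) and CCGGAAG in 36 (39.6%). After the start CACGTG was in 8 (8.79%), again above the 1.32% of all genes.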

How the data were processed

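Sap130 ChIP-seq and input libraries, 1 of each, were made from E13.5 heart (input label E13.6). Per the submitters' processing notes, Bowtie 1.1.2 (an aligner), MACS2 2.1.0.20140616 (which calls peaks of ChIP reads over input) and the builds GRCm38 and mm10 were used. Parameters, thresholds, duplicate handling and the tool behind the gene names are not stated in the sources used here, and they set how many peaks there are, how wide they are and which gene is named. The authors deposited 1 table of 16697 peaks, of which 15171 name a transcript within 10 kb, with positions and an order but no measured value. Transcript ends in it count from 0, and 1 was added to both, which matched RefSeq gene spans of GRCm38.p6. Peaks were linked to genes by name or accession (15141 linked).

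Genes, roles, motifs and the list of other biogenesis genes were chosen with earlier results of these data known. Every gene is accounted for. Values in full were given, in each role, to the first 2 and last 2 by position, the widest and the narrowest peak, and each gene with no promoter peak, no named peak, more than 1 named peak or a start outside its peak. Of the other biogenesis genes the first 4 by position in each group and those without a named peak were named. Medians and counts were set beside all protein-coding genes or those with a promoter peak, with no test across genes. Alternatives were other windows, peak choices, groupings and backgrounds, peaks under 200 bp apart merged, and motif windows before or after the start only. The counting steps were tested on simulated peaks. Python 3.11.15, pandas 2.3.3, NumPy 2.4.6 and matplotlib 3.10.9 were used.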

Additional observations from a re-analysis of the deposited data

How the results depend on the processing

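The count of 41 genes with a promoter peak became 36 with a window of 500 bp, 42 with 3 kb or with any base of the peak in the window, 39 with the first 8348 positions only, 37 with peaks of at least the median width (682 bp), and 48 of 50 when any peak near either gene end counted. The order of the medians of small-subunit, large-subunit and snoRNP genes stayed as given for midpoint, width and position in 9 of 9 alternatives each. These alternatives reused the same genes and mostly the same peaks, so the order could hardly change and they are no independent check. Among the other ribosome biogenesis genes the order differed for each of these measures. Of 116 values recomputed under alternatives, 111 stayed within a margin set beforehand. For counts the margin was a fixed factor, and for medians and motif ratios an interval around the main value. That interval was the full range for the snoRNP genes, so their medians could hardly leave it. Outside the margin, 3 values stayed on the same side of their background and 2 changed direction. All 5 were ratios of a motif's share in these genes to its share in the background. With 250 bases before the start only, the ratio went from 2.80 to 1.31 for CACGTG, from 2.01 to 0.884 for CACGCG and from 0.636 to 0 for GCATGCGC. With the 50 bases after the start only, an alternative chosen after seeing the data, it was 11.4 for CACGTG. With genes that have a promoter peak as the background, it went from 1.37 to 0.913 for GGGCGG. The motifs at 0.884 and 0.913 thus went from above to below their background. The cause was not tested. With 1 ChIP library there are no replicates to leave out, and no depth or height from which the precision of a peak could be judged. No paired analysis was possible because each group has 1 library and no result comes from a test.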
